A study of Rattus norvegicus with 18 samples.

Results

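The 9 genes described here are the colony-stimulating factor receptors, the ligands of one of them and the transcription factors that set the macrophage lineage, as they were read in CD11b/c+ cells of the rat knee synovium. They were chosen by symbol (Csf1r, Csf1, Il34, Csf2ra, Csf2rb, Spi1, Maf, Irf8 and Cebpb), and each symbol matched 1 of the 30643 genes listed at each time point. Male, wild type Sprague Dawley rats had knee surgery at 12 weeks of age. Osteoarthritis (OA) was induced by cutting the anterior cruciate ligament and destabilizing the medial meniscus, and sham rats had the joint opened only, so that both groups carried an arthrotomy. RNA was sequenced 4 weeks after surgery in 5 OA and 5 sham libraries, each a pool of 4 rats, and 12 weeks after surgery in 4 OA and 4 sham libraries, each a pool of 3 rats. The sort on magnetic beads used an antigen that other myeloid cells share, so the label macrophage covers monocytes too.

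The receptor encoded by Csf1r is a tyrosine kinase on the surface of monocytes and macrophages, and signals from it keep tissue macrophages alive. It has a pair of unrelated ligands, CSF1 and interleukin 34, which in most tissues come from stromal, endothelial or epithelial cells. The receptor for GM-CSF joins an alpha chain (Csf2ra), which binds the ligand, to a beta chain (Csf2rb), which signals and is shared with the receptors for interleukin 3 and interleukin 5. Spi1 encodes PU.1, the ETS factor without which macrophages do not form and which drives transcription of Csf1r. Maf encodes c-MAF, a factor of mature tissue macrophages, Irf8 a partner of PU.1 in monocytes and dendritic cells, and Cebpb a bZIP factor of monocytes and of the inflammatory response.

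The stretch before the start of Csf1r and of Csf2ra is shown because the levels of these receptor genes and of Spi1 went together across libraries, and because GAGGAA is the core sequence that PU.1 is known to bind. RefSeq promoters of the GRCr8 assembly were on hand for 5 of the 9 genes (Csf1r, Csf2ra, Maf, Irf8 and Cebpb). Each sequence is the 250 bases before the annotated start, 5′ to 3′ on the strand of the gene, and capitals mark GAGGAA or its reverse complement TTCCTC. Csf1r lies on the plus strand at chr18:56834129-56834378 and Csf2ra on the minus strand at chr14:118118-118367.
Csf1r: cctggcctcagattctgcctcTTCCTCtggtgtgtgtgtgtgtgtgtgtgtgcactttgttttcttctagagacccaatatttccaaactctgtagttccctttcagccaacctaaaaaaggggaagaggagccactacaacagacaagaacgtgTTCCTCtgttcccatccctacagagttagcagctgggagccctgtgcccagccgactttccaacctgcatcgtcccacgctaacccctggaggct
Csf2ra: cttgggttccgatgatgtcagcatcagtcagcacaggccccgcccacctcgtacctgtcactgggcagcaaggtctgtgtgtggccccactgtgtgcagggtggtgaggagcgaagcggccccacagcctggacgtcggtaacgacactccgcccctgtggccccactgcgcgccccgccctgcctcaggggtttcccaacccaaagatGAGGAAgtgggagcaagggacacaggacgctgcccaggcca
The Csf1r stretch holds 2 matches on its opposite strand, which begin 229 and 95 bases before the start, and the Csf2ra stretch holds 1 match on the strand of the gene, 41 bases before the start. GAGGAA was not among the letters of the Maf, Irf8 and Cebpb stretches. On either strand it stands in 23.3% of the 33469 rat promoters of that length. Of the other motifs searched on both strands, TATAAA stands once in Irf8 (29 bases before the start) and once in Cebpb (33 bases), and in 12.9% of all promoters. TGCTGAC, a core of MAF sites, stands in 2 places in Csf2ra and in 3.53% of all promoters. TTGCNNAA (C/EBP), the IRF element and TGANTCA (AP-1), which stand in 9.22%, 3.41% and 6.34% of all promoters, were in none of the 5 stretches. A match of letters is a description of the sequence and no measure of binding.

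Libraries held 4662344 to 18080503 reads in genes (median 12884447.5), and the fewest were in sham replicate 3 at 4 weeks. Levels are normalized reads, which are reads divided by a size factor of the library, so 3 reads, taken as the limit of detection, correspond to 2.06 to 6.96 normalized reads. All 9 genes lay far above this limit in every library and passed the filter of a mean of 10 normalized reads at both time points. All 11 macrophage markers were present, with sums of 116899 to 139111 normalized reads in OA and 119415 to 125704 in sham at 4 weeks, and of 153611 to 185015 and 128938 to 183600.1 at 12 weeks. The sum of the 6 monocyte markers in the tables was mostly Fn1, which is also a matrix gene (means of 47706 in OA and 32237 in sham at 12 weeks). At 12 weeks that sum was higher in OA without overlap, with 49736 to 62862 in OA and 29598 to 45693 in sham. Of the 6 markers 4 had positive log2 fold changes there, among them Vcan (0.49), and the median of the 6 was 0.18. Ly6c and Plac8 had the lower mean in OA (log2 fold changes of −0.38 and −0.32), so not all of these markers shared the direction. Neutrophil markers summed to 11588 and 13609 in OA replicates 1 and 3 at 4 weeks, to 567 to 739 in the other OA libraries and to 1071 to 4026 in sham. Transcripts of other cells were present as well. The 5 endothelial markers in the tables (Cdh5, Kdr, Vwf, Tek and Flt1) summed to 27031 to 46028 normalized reads per library and the 11 fibroblast markers to 51314 to 117801, while the 8 markers of T and NK cells summed to 7058 to 13275. Of that sum Cd4, which rat macrophages also express, made up most (group means of 7311 to 11509), and the defining T cell genes Cd3d, Cd3e and Cd3g had group means of 0.937 to 11.8. Fewer cells of a type and less RNA per cell cannot be told apart in such bulk libraries. At 12 weeks sham replicate 3 stood apart, with the lowest macrophage sum and the highest endothelial sum of the 8 libraries, and results that rest on it are given with and without it.

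None of the 9 genes passed the test at either time point. The test was limma on log2(normalized reads + 1) over all genes past the filter, with Benjamini-Hochberg adjustment, and called a gene where the adjusted p was under 0.05 and the log2 fold change was 0.5 or more in size. It called 0 of 14861 genes at 4 weeks and 0 of 14666 at 12 weeks (0% at both), as did edgeR. DESeq2, with its own filter, called 27 of 16978 genes (0.159%) and 98 of 14101 (0.695%), and none of the 9. Unadjusted limma p-values were under 0.05 for 2 of the 9 genes at 4 weeks, Maf and Cebpb, both with the higher mean in OA, beside 7.92% of all genes in either direction and 4.1% with the higher mean in OA. At 12 weeks they were under 0.05 for 2 other genes, Csf2rb and Il34, both with the lower mean in OA, beside 12.4% and 6.62% of all genes. The ranges of OA and sham did not overlap for 0 of the 9 genes at 4 weeks and for 1 at 12 weeks, beside 1.87% and 6.29% of all genes. A difference between the time points in the OA effect was called for 0 of 14420 genes by limma and by edgeR, and for 0 of 30131 by DESeq2 (0% each). Its unadjusted p was under 0.05 for 0 of the 9 genes by limma, beside 3% of all genes, and for 1 by DESeq2, Maf, beside 5.34%. With 9 genes these counts are small, and nothing is read from them about the group as a whole. Log2 fold changes had a median of 0.11 at 4 weeks and 0.0060 at 12 weeks, where all genes tested had medians of 0.028 and −0.011. Over the 9 genes they ran from −0.27 to 0.48 at 4 weeks and from −0.43 to 0.20 at 12 weeks, with standard errors of 0.10 to 0.20 and 0.074 to 0.17. The plot of levels by library shows how far the groups overlapped.

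**Figure D1:**
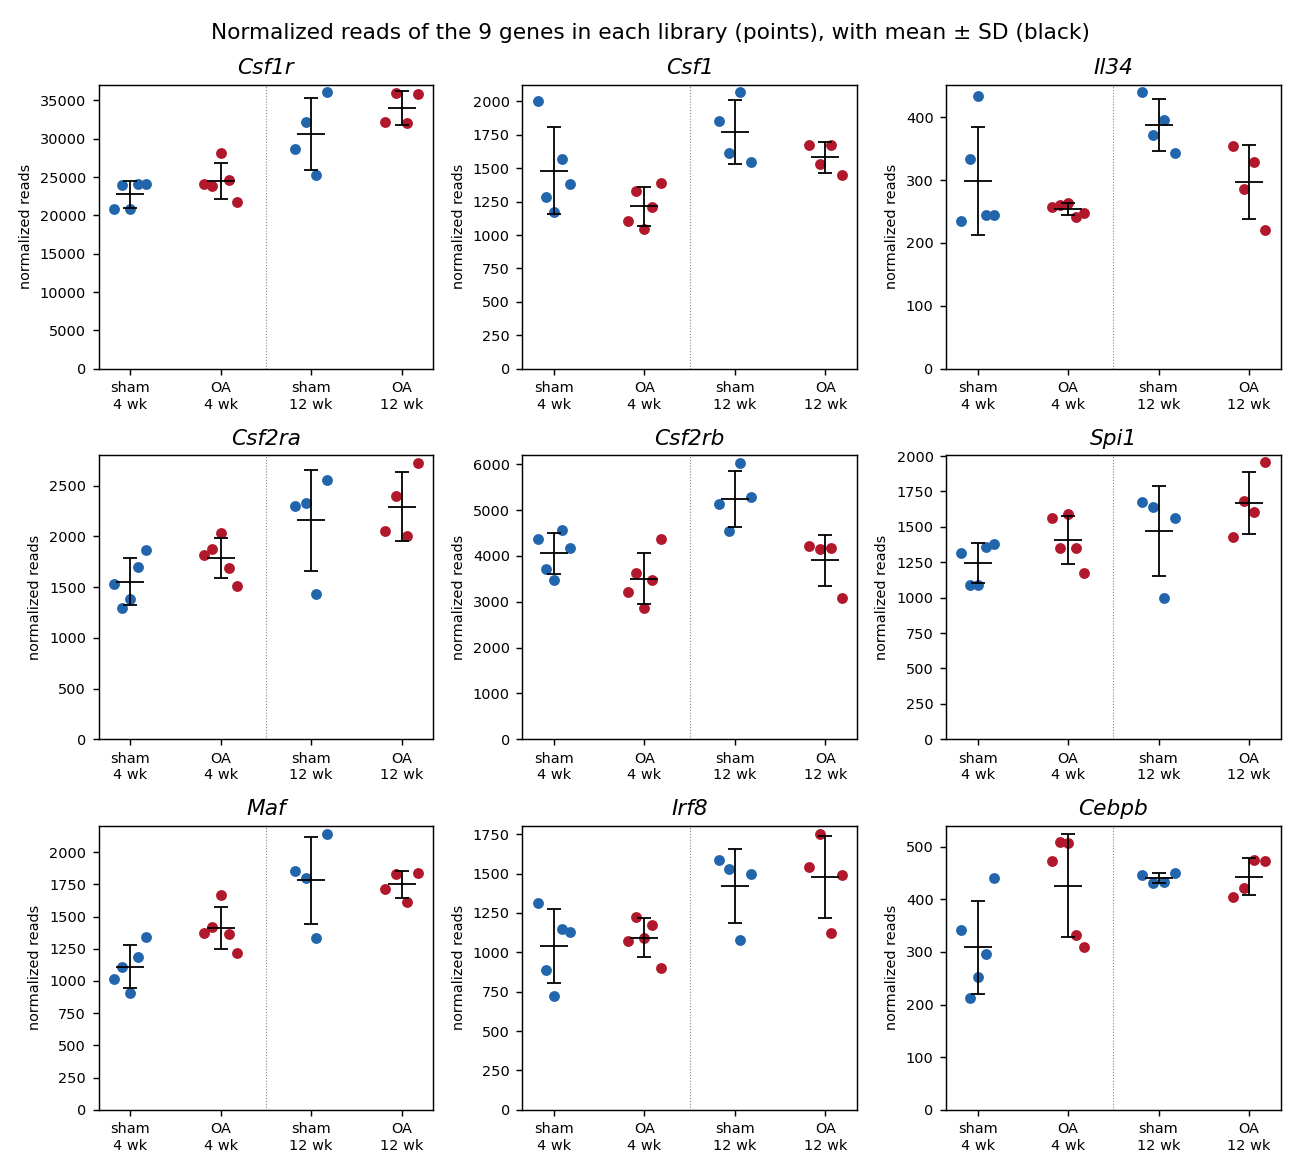
Normalized reads of each gene in each library (y axis, from 0) in sham (blue) and OA (red) at 4 and 12 weeks, with mean ± SD in black; the time points were normalized apart, so levels are read within a time point. Groups overlap in every panel except Csf2rb at 12 weeks, where the 4 OA libraries reach 4216 and the 4 sham libraries begin at 4537.

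Of the ligands of CSF1R, Csf1 had the lower mean in OA at both time points and Il34 too, though no difference passed the adjusted test. At 4 weeks Csf1 (ENSRNOG00000018659) stood at 1107, 1327, 1045, 1208 and 1388 normalized reads in OA and at 1999, 1283, 1172, 1568 and 1381 in sham. The sham range took in 3 of the 5 OA libraries, and sham replicate 1 was the highest of all. The means were 1215 ± 144 (SD, n = 5) and 1481 ± 324, a log2 fold change of −0.27 (SE 0.14, adjusted p = 0.648). Its unadjusted p was 0.0731 by limma, 0.0340 by edgeR (adjusted p = 0.592) and 0.0497 by DESeq2 (adjusted p = 0.438). Without sham replicate 1 the log2 fold change was −0.15, and without sham replicate 3 it was −0.35 (adjusted p = 0.400). At 12 weeks Csf1 stood at 1676, 1528, 1671 and 1446 in OA and at 1854, 1609.7, 2071 and 1549 in sham, again with overlap. The log2 fold change was −0.16 (SE 0.097, adjusted p = 0.517), and −0.079 without sham replicate 3.

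Il34 (ENSRNOG00000017602) was even in OA at 4 weeks, from 241 to 263 normalized reads with a mean of 254 ± 9.36 (SD, n = 5), and uneven in sham, where it stood at 235, 333, 434, 244 and 245. Only sham replicates 2 and 3 lay above the OA range. The log2 fold change was −0.19 (SE 0.15, adjusted p = 0.750), and −0.043 without sham replicate 3. At 12 weeks it stood at 354, 286, 329 and 219.9 in OA and at 439.8, 371, 396 and 344 in sham. Here 3 of the 4 OA libraries were below all sham libraries, and the means were 297 ± 58.9 and 388 ± 40.8 (SD, n = 4). The log2 fold change was −0.40 (SE 0.14, 95% confidence interval −0.72 to −0.078), with a limma p of 0.0195 that adjustment took to 0.342, and the two-sided exact permutation p was 0.0571. Without sham replicate 1 the limma p was 0.0601, and leaving out single libraries gave log2 fold changes of −0.49 to −0.26, the smallest in size without OA replicate 4. The level of Il34 followed that of a list of pericyte and smooth muscle markers written after values were seen (Rgs5, Notch3, Acta2 and 6 others), with Pearson r = 0.79 over the 18 libraries, each time point centred on its mean. That list summed to 15869 to 20304 normalized reads in OA and 16509 to 24070 in sham at 12 weeks, where the groups overlapped. Within that time point r was 0.74 with this list and 0.82 with a list of 9 adipocyte markers, also written after values were seen, whose sums were lower in all OA libraries (8554 to 10361) than in sham (10745 to 13160.5). The part of either list in the Il34 values was not tested.

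Csf1r (ENSRNOG00000018414) itself differed little between the groups. At 4 weeks it stood at 24079.8, 23870.0, 28192, 24623 and 21724 normalized reads in OA and at 20785, 23937, 20805, 24054 and 24072 in sham. OA replicate 3 was the highest and 3 of the 5 OA libraries exceeded all sham libraries, yet OA replicate 5 was among the low ones. The means of 24498 ± 2341 and 22731 ± 1768 (SD, n = 5) gave a log2 fold change of 0.11 (95% confidence interval −0.11 to 0.32, adjusted p = 0.778), or 0.055 without OA replicate 3. At 12 weeks it stood at 32145, 36014, 32065 and 35861 in OA and at 28706, 32191, 25265 and 36139 in sham, for a log2 fold change of 0.16 (95% confidence interval −0.12 to 0.45, adjusted p = 0.597), or 0.077 without sham replicate 3. Both the highest and the lowest libraries were sham. The intervals leave room for OA levels of up to 1.25 and 1.36 times those of sham. Csf1r followed the summed macrophage markers (r = 0.84 over 18 libraries) and as closely the T and NK cell list, most of which is Cd4 (r = 0.85), and ran against the endothelial ones (r = −0.77). Without the 2 libraries farthest from the median these were 0.73, 0.77 and −0.60.

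The chains of the GM-CSF receptor took opposite signs at both time points, except that Csf2ra turned negative at 12 weeks with sample quality weights (−0.023) or without sham replicate 3. Csf2ra (ENSRNOG00000049782) stood at 1819, 1879.8, 2038, 1687 and 1509.6 normalized reads in OA and at 1530.5, 1292, 1379, 1701 and 1869.7 in sham at 4 weeks. The groups overlapped, with sham replicate 5 nearly as high as the second highest OA library, and the log2 fold change was 0.21 (SE 0.11, adjusted p = 0.658). At 12 weeks it stood at 2057, 2394, 1999 and 2726 in OA and at 2302, 2332, 1436 and 2557 in sham, a log2 fold change of 0.11 (SE 0.17, adjusted p = 0.803). The low value of 1436 is from sham replicate 3, and without that library the log2 fold change was −0.073 by limma.

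Csf2rb (ENSRNOG00000000187) was the only one of the 9 genes whose groups did not overlap. At 12 weeks the OA libraries stood at 4216, 4147, 4180.4 and 3075 normalized reads and the sham libraries at 5127, 4537, 6034 and 5282. All 4 OA libraries were below all 4 sham libraries, as for 3.44% of all genes tested, with OA replicate 4 far below the other OA libraries. The means were 3905 ± 554 and 5245 ± 616 (SD, n = 4), and the log2 fold change was −0.43 (SE 0.12, 95% confidence interval −0.70 to −0.17). The limma p was 0.00462 and its adjusted p 0.278, against an adjusted p of 0.282 by edgeR and 0.0682 by DESeq2. The exact permutation p of 0.0286 is the smallest that 4 against 4 libraries allow. Without OA replicate 4 the log2 fold change was −0.32 (adjusted p = 0.662), without sham replicate 3 it was −0.36 (adjusted p = 0.262), and over all single libraries left out it ran from −0.50 to −0.32. At 4 weeks Csf2rb stood at 3215, 3623, 2864, 3465 and 4362 in OA and at 4365, 3724, 3469.9, 4557 and 4168 in sham, where 3 of the 5 OA libraries were below all sham libraries. That log2 fold change was −0.22 (SE 0.12, adjusted p = 0.650), and the difference between the time points was −0.18 (SE 0.17, adjusted p = 0.962), so an unequal change was not detectable with these libraries.

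The 12-week Csf2rb values went with the endothelial markers, which summed to 32422, 29745, 34780 and 27031 normalized reads in OA replicates 1 to 4 and to 34134, 32614, 46028 and 29784 in sham replicates 1 to 4. Sham replicate 3 had the most of both and OA replicate 4 the least of both, and r was 0.68 over the 18 libraries (0.45 without the 2 libraries farthest from the median). All 5 endothelial markers had negative log2 fold changes at 12 weeks, with a median of −0.23, and 1 of them had an unadjusted p under 0.05. Fibroblast markers had the opposite direction, with sums of 90740 to 117801 in OA and 62927 to 95564 in sham at 12 weeks, and Csf2rb did not follow them (r = −0.096). At 12 weeks Csf2rb followed the adipocyte list, written after values were seen, more closely (r = 0.85 over 8 libraries) than the endothelial one (r = 0.74), and the sums of adipocyte markers did not overlap, with 8554 to 10361 in OA and 10745 to 13160.5 in sham. Further lists were tied to it about as closely at 12 weeks, among them osteoclast (r = −0.78), skeletal muscle (r = −0.73) and T and NK cell markers (r = −0.72). Osteoclast markers summed to 1825 to 2735 in OA and 1087 to 1574 in sham, and skeletal muscle markers to 1072 to 1898 and 785 to 986, both without overlap. The part of cell makeup in the Csf2rb difference was not tested. As a ratio within each library, reads of Csf2rb per read of Csf2ra were 2.01 ± 0.549 in OA and 2.63 ± 0.269 in sham at 4 weeks (SD, n = 5). At 12 weeks the ratio was 1.75 ± 0.445 and 2.61 ± 1.07 (SD, n = 4), where sham replicate 3 alone reached 4.20 and the other sham libraries lay between 1.95 and 2.23, within or near the OA range of 1.13 to 2.09. The ratio has no correction for gene length and says nothing of which chain is the more abundant.

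**Figure D2:**
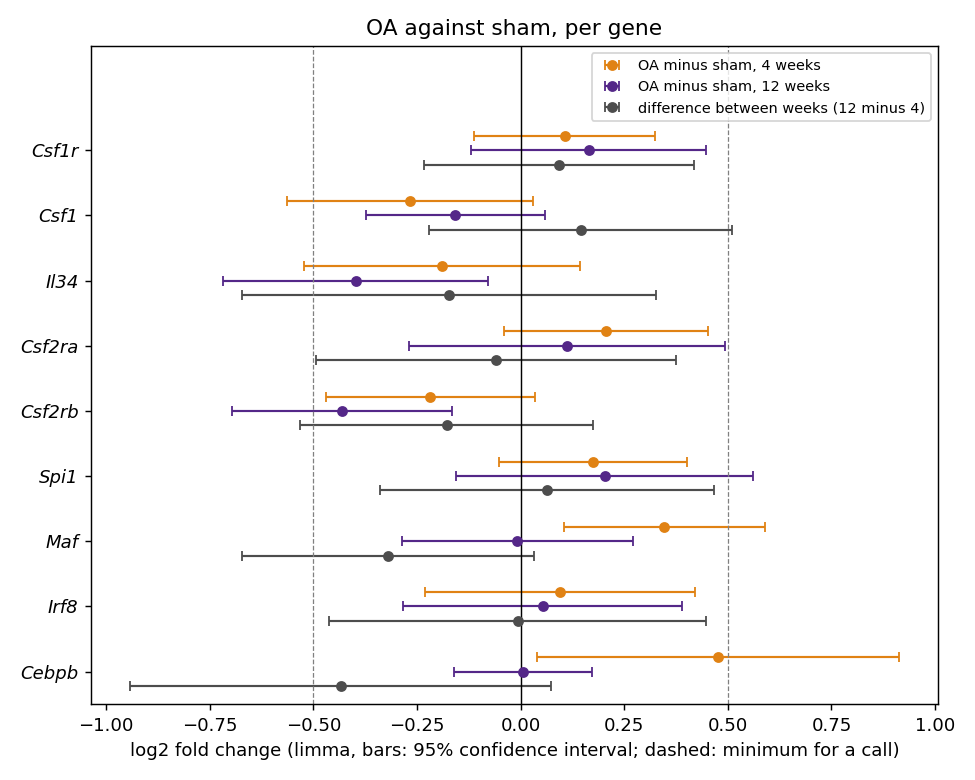
Log2 fold change of OA against sham (x axis) for each gene at 4 weeks (orange) and 12 weeks (purple), and the difference between the time points (grey, on log2 CPM), with 95% confidence intervals from limma; dashed lines mark the minimum size for a call. The intervals of Maf and Cebpb at 4 weeks and of Il34 and Csf2rb at 12 weeks leave out 0 before adjustment, and each interval of the difference between time points includes 0.

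Spi1 (ENSRNOG00000012172), the gene of PU.1, had small positive log2 fold changes at both time points. At 4 weeks it stood at 1562, 1348, 1592, 1352 and 1177 normalized reads in OA and at 1312, 1091, 1091, 1355 and 1375 in sham. OA replicates 1 and 3 were above all sham libraries and the rest were mixed, for a log2 fold change of 0.17 (SE 0.10, adjusted p = 0.679). The same 2 libraries held by far the most neutrophil markers, and Spi1 followed those markers at 4 weeks (r = 0.66 over 10 libraries) and not at 12 weeks (r = 0.092 over 8). Other lists were tied to Spi1 more closely at 4 weeks, among them T and NK cell (r = 0.81), keratinocyte (r = −0.82) and endothelial markers (r = −0.72). Its r with the number of reads in the library was 0.74 at 4 weeks. The part of any of these in the Spi1 values was not tested. At 12 weeks it stood at 1430.2, 1679, 1603 and 1956 in OA and at 1678, 1641, 997 and 1564 in sham, a log2 fold change of 0.20 (SE 0.16, adjusted p = 0.610). Sham replicate 3 was again far below the rest, and without it the log2 fold change was 0.026.

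Maf (ENSRNOG00000012428) had the smallest unadjusted p of the 9 genes at 4 weeks. It stood at 1372, 1423, 1667, 1368 and 1220.1 normalized reads in OA and at 1016, 1109, 909.8, 1186 and 1340.4 in sham. In 4 of the 5 OA libraries it was above all sham libraries, and OA replicate 5 and sham replicate 5 were the ones that crossed. The means were 1410 ± 162 and 1112 ± 164 (SD, n = 5), and the log2 fold change was 0.35 (SE 0.11, 95% confidence interval 0.10 to 0.59). The limma p of 0.00876 became 0.544 after adjustment, and the two-sided exact permutation p was 0.0159, where 0.00794 is the smallest that 5 against 5 libraries allow. The direction held without any single library, with log2 fold changes of 0.27 to 0.42. At 12 weeks the groups were level, with 1717, 1830.1, 1609.8 and 1839 in OA and 1854, 1799, 1332 and 2142 in sham (log2 fold change −0.0079, SE 0.13, adjusted p = 0.982, or −0.14 without sham replicate 3). The difference between the time points was −0.32 (SE 0.17, adjusted p = 0.962). As reads per 100 reads of Csf1r, Maf was 5.56 to 5.96 in OA and 4.37 to 5.57 in sham at 4 weeks, and 5.02 to 5.34 against 5.27 to 6.46 at 12 weeks. Maf followed the number of reads in the library (r = 0.68, but 0.38 without the 2 farthest libraries and 0.36 at 12 weeks) and ran against a list of 9 adipocyte markers written after values were seen (r = −0.79), which summed to 8319 to 10382 normalized reads in OA and 9872 to 15356 in sham at 4 weeks. The part of either in the Maf values was not tested.

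Irf8 (ENSRNOG00000017869) varied within the groups more than between them. At 4 weeks it stood at 1074, 1224, 1089, 1174 and 901 normalized reads in OA and at 1313, 888, 719.5, 1149.7 and 1127 in sham, so that the sham libraries held both extremes. The log2 fold change was 0.096 (95% confidence interval −0.23 to 0.42, adjusted p = 0.866), and without sham replicate 3 it was −0.029. At 12 weeks it stood at 1542, 1750.5, 1124 and 1492 in OA and at 1588, 1527, 1076 and 1495 in sham, with 1 low library in each group (log2 fold change 0.054, SE 0.15, adjusted p = 0.898, or −0.075 without sham replicate 3). Its level followed that of the 8 dendritic cell markers (r = 0.84 over 18 libraries, 0.90 at 4 weeks and 0.81 at 12 weeks), a cell type in which IRF8 is known to act. Irf8 also followed the number of reads in the library (r = 0.65, with 0.71 at 4 weeks and 0.60 at 12 weeks) and ran against keratinocyte markers (r = −0.73). Without the 2 farthest libraries the r was 0.78 with dendritic cell markers, 0.46 with reads and −0.48 with keratinocyte markers. The part of any of these in the Irf8 values was not tested.

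Cebpb (ENSRNOG00000057347) had the largest log2 fold change of the 9 genes at 4 weeks and one near 0 at 12 weeks. It stood at 473, 509, 508, 331 and 309 normalized reads in OA and at 341, 212, 253, 297 and 440.0 in sham at 4 weeks. OA replicates 1 to 3 were above all sham libraries, while OA replicates 4 and 5 lay among them. The means were 426 ± 97.8 and 309 ± 87.8 (SD, n = 5), a log2 fold change of 0.48 (SE 0.20, 95% confidence interval 0.039 to 0.91, adjusted p = 0.611), and the exact permutation p was 0.0714. Leaving out single libraries gave 0.35 to 0.62 with an unadjusted p under 0.05 in 4 of 12 fits, which include edgeR and DESeq2 without sham replicate 3. At 12 weeks the sham libraries were close together at 447, 431, 434 and 450.5, and the OA libraries stood at 404, 422, 474 and 473 around them (log2 fold change 0.0060, 95% confidence interval −0.16 to 0.17). The difference between the time points was −0.43 (SE 0.24, adjusted p = 0.962).

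Set side by side as CPM, the reads of a gene scaled to the total of its library, with no test because each time point was processed as its own table, the order of the 4 groups differed between genes. Csf2rb was lowest in OA at 12 weeks (282 ± 39.5, SD, n = 4) and OA at 4 weeks (298 ± 44.1, n = 5), then came sham at 4 weeks (352 ± 28.4, n = 5) and sham at 12 weeks (379 ± 40.9, n = 4). Csf1r ran from sham at 4 weeks (1974 ± 143) through OA at 4 weeks (2085 ± 206) and sham at 12 weeks (2212 ± 331) to OA at 12 weeks (2458 ± 155). In both orders the ranges of mean ± SD overlapped between neighbours. Maf was 96.4 ± 12.4 in sham at 4 weeks and 120.0 ± 13.9, 126 ± 7.93 and 129 ± 24.1 in OA at 4 weeks, OA at 12 weeks and sham at 12 weeks. Time after surgery, age and the number of rats in a pool cannot be told apart in such a comparison.

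Across libraries Csf2ra, Spi1 and Maf went up and down with Csf1r, while Csf1 and Csf2rb ran against it. Correlations are Pearson r of log2 levels over the 18 libraries, each time point centred on its mean. These are descriptions, since the libraries share their size factors and vary in cell makeup. Spi1 and Csf2ra were the closest pair (r = 0.92, or 0.82 without the 2 farthest libraries), and Csf2ra also went with Maf (r = 0.85). Csf1r went with Maf (r = 0.80), Csf2ra (r = 0.78) and Spi1 (r = 0.73). Without the 2 farthest libraries, of which sham replicate 3 at 12 weeks was 1, these were 0.66, 0.60 and 0.47. Csf1 and Csf2rb went together (r = 0.76, or 0.79 without the 2 farthest libraries) and both ran against Csf1r (r = −0.68 and −0.63, or −0.54 and −0.39 without the 2 farthest libraries). Irf8 and Cebpb were tied to Csf1r less closely (r = 0.45 and 0.33), and for Irf8 the rank correlation was 0.20. Il34 ran against Csf1r (r = −0.52) but had r = 0.021 with Csf1. Csf2ra and Csf2rb, the chains of one receptor, had r = −0.50, or −0.37 without the 2 farthest libraries. Endothelial markers separated Spi1 and Csf2ra from Csf1 in sign, with r = −0.83 for Spi1, −0.81 for Csf2ra and 0.48 for Csf1. Without the 2 farthest libraries these were −0.63, −0.63 and 0.30. For Csf1 the r with endothelial markers was 0.24 at 4 weeks and 0.95 at 12 weeks. Over the 18 libraries fibroblast markers followed none of the 9 closely (r of −0.38 to 0.27), but for some genes the sign differed between time points. For Maf r was 0.54 at 4 weeks and −0.50 at 12 weeks, and for Csf2ra 0.52 and −0.39.

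**Figure D3:**
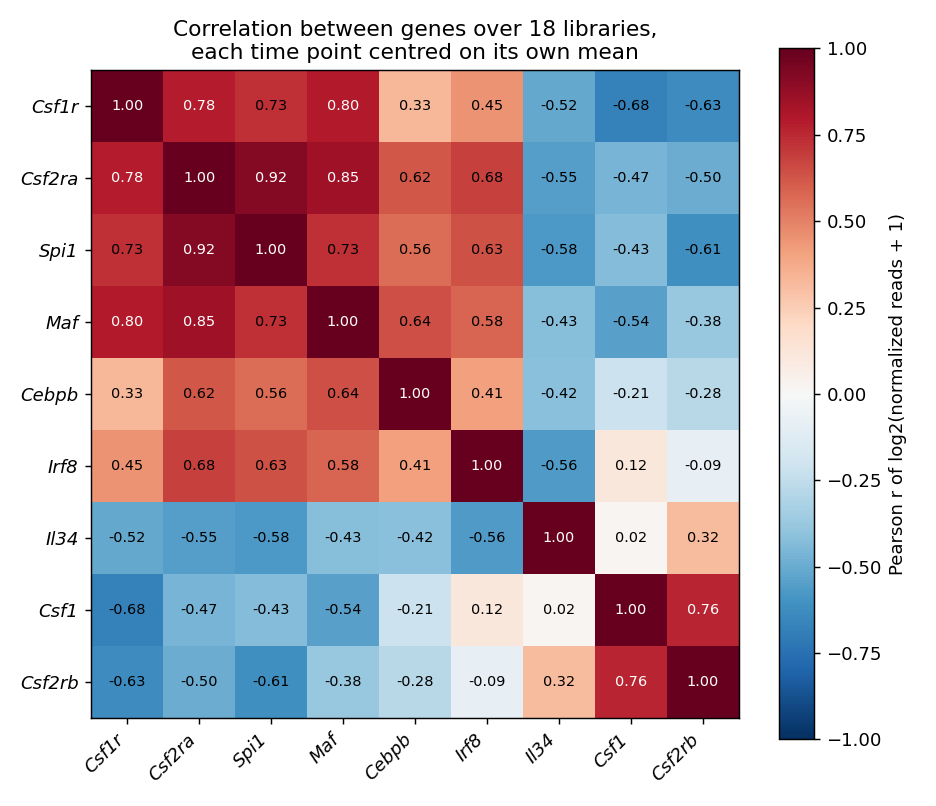
Pearson r between each pair of genes over 18 libraries (colour and printed value), from log2 levels centred within each time point. Csf1r, Csf2ra, Spi1 and Maf form a block with r of 0.73 to 0.92, or 0.47 to 0.85 without the 2 libraries farthest from the median. Csf1 and Csf2rb (r = 0.76) stand against it with negative values.

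**Figure D4:**
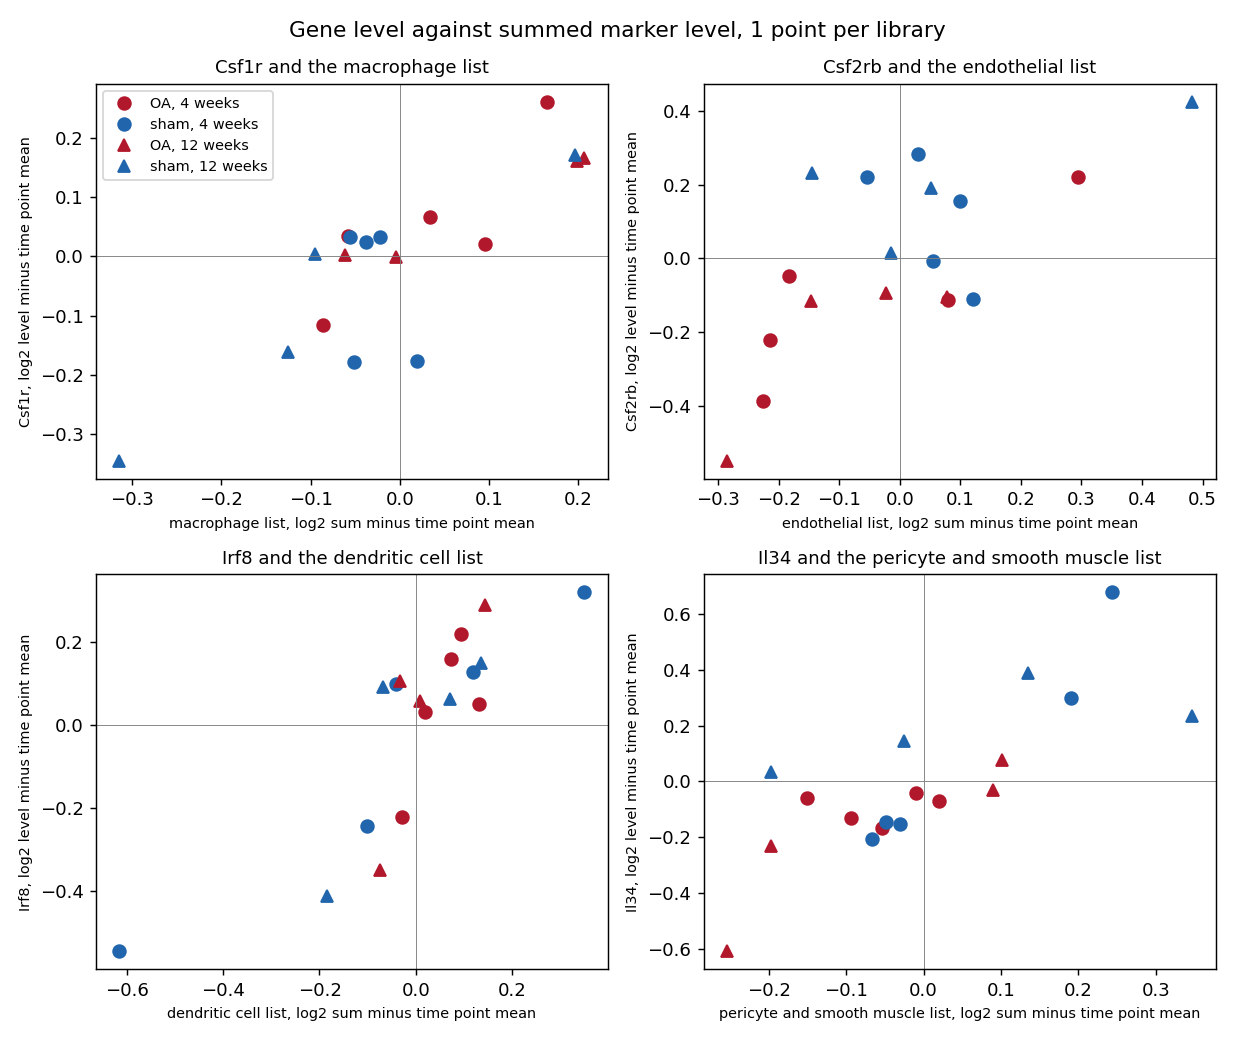
Log2 level of 4 genes (y axes) against the log2 summed level of a marker list (x axes), both minus the mean of the time point, with 1 point per library (circles 4 weeks, triangles 12 weeks, red OA, blue sham). Pearson r over the 18 libraries is 0.84 for Csf1r with macrophage, 0.68 for Csf2rb with endothelial, 0.84 for Irf8 with dendritic cell and 0.79 for Il34 with pericyte and smooth muscle markers.

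The genes with the most similar pattern were sought among 12553 named genes. For Csf1r they were Tpp1 (r = 0.91), a lysosomal peptidase, Lpxn (r = 0.91) and Antxr2 (r = 0.91). For Spi1 they were Pld3 (r = 0.93), Csf2ra (r = 0.92) and Laptm5 (r = 0.91), a lysosomal membrane protein of blood cells, and Laptm5 (r = 0.90) and Kcnab2 (r = 0.89) followed Spi1 in the list for Csf2ra. The pattern of Csf2rb was closest to that of Agrn (r = 0.93), which encodes a basement membrane proteoglycan, Tjap1 (r = 0.92) and Gadd45g (r = 0.92). Il34 was closest to Trarg1 (r = 0.91), a protein of GLUT4 vesicles in fat and muscle, Ndrg2 (r = 0.91) and Vtn (r = 0.91), which encodes vitronectin. For Csf1 the closest were Anpep (r = 0.86), Igf2r (r = 0.84) and Birc3 (r = 0.84). Maf had Osbpl11 (r = 0.92), Dbnl (r = 0.91) and Rhobtb1 (r = 0.91), Irf8 had Ppm1h (r = 0.90), Mical1 (r = 0.89) and Bin2 (r = 0.89), and Cebpb had Irf2bpl (r = 0.90), Naa50 (r = 0.82) and Zfp316 (r = 0.81).

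The wider pathway was read from 4 lists, and no gene of any list was called by limma, edgeR or DESeq2. Of 6 other ligands of colony-stimulating and related receptors, Csf2, Il3 and Il5 were too low to test at both time points, with group means of Csf2, the GM-CSF gene, between 2.08 and 5.54 normalized reads, near the limit of detection. Among the 3 ligand genes tested at 12 weeks, 2 had an unadjusted p under 0.05, both with the lower mean in OA, beside 6.62% of all genes. Kitlg, the ligand of KIT, had 1662 to 2458 normalized reads in OA and 2189 to 3109 in sham (log2 fold change −0.40, SE 0.14, adjusted p = 0.331). The other was Flt3lg, named after its values were seen (log2 fold change −0.33, adjusted p = 0.366). None of the 5 other receptors reached an unadjusted p of 0.05. Csf3r, the G-CSF receptor of neutrophils, had the smallest p among them at 4 weeks (log2 fold change 0.37, SE 0.19, adjusted p = 0.648) and Kit at 12 weeks (log2 fold change −0.35, SE 0.16, adjusted p = 0.404).

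Among 27 genes of signalling below CSF1R and the GM-CSF receptor, all tested, 1 gene had an unadjusted p under 0.05 at each time point, beside 7.92% and 12.4% of all genes. It was Shc1 both times, an adaptor that links receptor kinases to RAS. Shc1 had 3899 to 4509 normalized reads in OA and 3373 to 3881 in sham at 4 weeks (log2 fold change 0.19, SE 0.073, adjusted p = 0.594). At 12 weeks it had 4472 to 4793 and 3879 to 4358 (log2 fold change 0.16, SE 0.062, adjusted p = 0.358). OA lay above sham without overlap at both time points, as for 1.18% and 2.85% of all genes at the one and the other. The list had a median log2 fold change of 0.079 at 4 weeks, with 22 of 27 genes positive beside 57.1% of all genes, and of 0.027 at 12 weeks, with 14 of 27 positive beside 47.5%.

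Of 29 other myeloid transcription factors, 28 were tested, and 3 had an unadjusted p under 0.05 at 4 weeks (2 with the higher mean in OA) and 7 at 12 weeks (3 with the higher mean). Over all genes the shares were 4.1% with the higher and 3.82% with the lower mean in OA at 4 weeks, and 5.75% and 6.62% at 12 weeks. Cebpa, a C/EBP factor of early myeloid cells and of fat cells, had the smallest p both times. It had 1426 to 1821 normalized reads in OA and 940.0 to 1632 in sham at 4 weeks (log2 fold change 0.37, SE 0.13, adjusted p = 0.570). At 12 weeks the 4 OA libraries, at 1521 to 1972, were above the 4 sham libraries, at 1266 to 1347 (log2 fold change 0.40, SE 0.080). The adjusted p was 0.264 by limma, 0.256 by edgeR and 0.00751 by DESeq2, where the fold change was under the minimum for a call. The other genes in these counts, named after their values were seen, were Klf2 (log2 fold change 0.32) and Pparg (−0.34) at 4 weeks and Mitf (0.30), Bhlhe41 (0.63), Pparg (−0.51), Gata2 (−0.38), Egr1 (−0.34) and Etv3 (−0.19) at 12 weeks. Medians of the list were 0.031 and −0.022, near those of all genes.

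**Figure D5:**
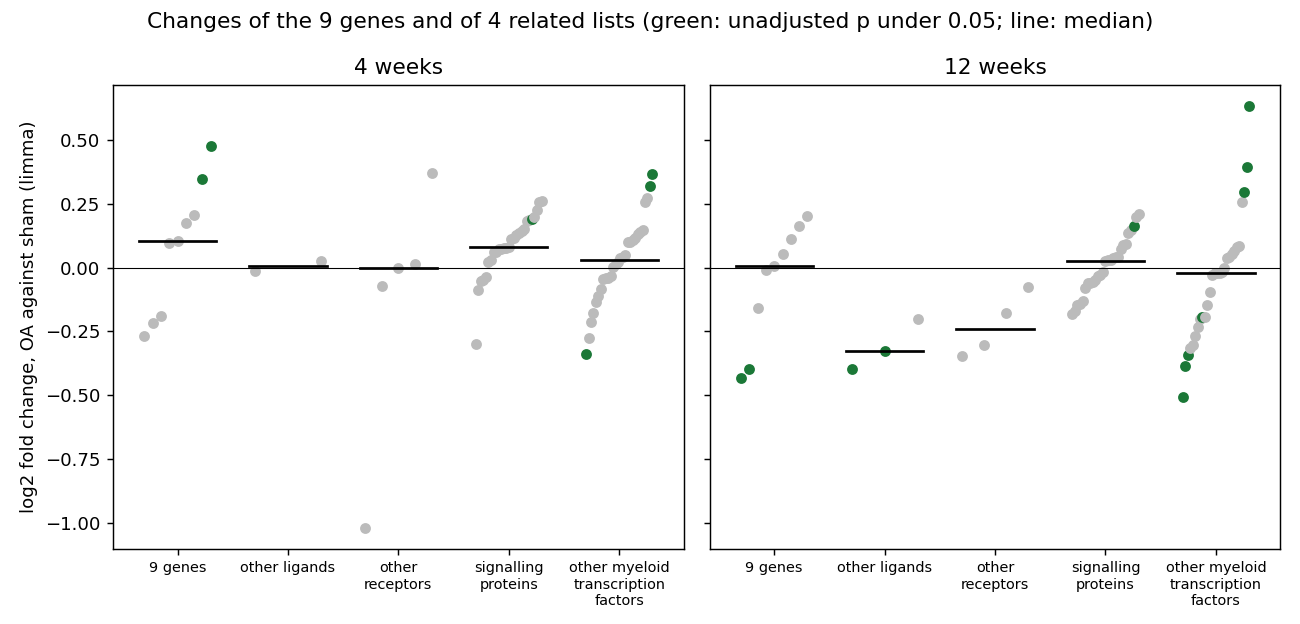
Log2 fold change of OA against sham (y axis) of the 9 genes and of each tested gene of 4 related lists at 4 and 12 weeks; green points have an unadjusted limma p under 0.05, grey points do not, and lines are medians. At 4 weeks 22 of the 27 signalling genes lie above 0, and at 12 weeks all 3 tested ligands lie below 0.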

How the data were processed

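RNA of CD11b/c+ synovial cells was sequenced from stranded, ribosome-depleted total RNA libraries. The authors took quality metrics of the reads with fastp 0.20.0, aligned them to the Rnor6 rat genome with STAR 2.7.6a, removed duplicate reads with Sambamba, which can lower the reads of highly expressed genes, counted them per gene with featureCounts 2.0.0 and normalized each time point on its own with DESeq2 1.24.0 (versions from the submitters' processing notes). Whether counting used the strand is not given in the sources used here. The deposited values are DESeq2-normalized reads, a signal and not counts, so each is a read count divided by the size factor of its library. Dividing by the value of 1 read gave whole reads for all values within a tolerance of 0.01, and these recovered reads gave the depth per library and the tests by edgeR and DESeq2. Other columns of sample values left unused numbered 0. Columns with the authors' own comparison (mean, fold change, its error, test statistic and p-values) were not used.

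A gene entered the test of a time point when its normalized reads averaged 10 or more. It was tested with limma 3.58.1 (R 4.3.3, empirical Bayes with trend) on log2(normalized reads + 1), OA against sham within each time point, with Benjamini-Hochberg adjustment over all genes tested. Fold changes are on that log2 scale, which understates changes of low genes. The OA effect was compared between time points by an interaction term in limma on log2 CPM of recovered reads (TMM scaling, prior count 2). edgeR 4.0.16 (quasi-likelihood) and DESeq2 1.42.0 were alternatives. Single genes had a two-sided exact permutation test. On simulated reads with 200 changed genes limma recovered 99% at 4 weeks, with 8 false calls, and 95.5% at 12 weeks, with 9 false calls. Recovery of differences as small as those seen in the 9 genes was not tested. Sums of marker lists and correlations are descriptions. Replicates are pools of different rats. Deviations of same-numbered OA and sham pools from their group means correlated at −0.131 to 0.080, except for replicate 3 at 12 weeks (0.298). Libraries were not paired. No pair of replicates agreed within sampling noise (chi-square per degree of freedom 5.84 to 38.8 over 32 pairs). The study's methods state more replicates at 12 weeks than the 4 per group labelled here, and others were not analysed here.

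The 9 genes and all lists were chosen with earlier results of these data known. For each of the 9 the 3 genes of highest Pearson r were named, leaving out unnamed loci and MHC genes, and of each pathway list the gene of smallest p at each time point. The alternatives were other pseudocounts, filters, scalings and tools, sample quality weights, a replicate block and leaving out each library. Counting intervals and limits cover counting error only. Promoters came from RefSeq (GRCr8), a later build than that of the counts. Python 3.11.15 with scipy 1.17.1 was used for the rest.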

Additional observations from a re-analysis of the deposited data

Results flagged for a closer look

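In groups of 4 or 5 libraries, the gap of the lowest or highest library to its nearest neighbour was compared with Dixon's 95% critical value. Chance alone flags about 1 in 20 groups, and 3 of the 36 groups of the 9 genes passed it. Csf2rb at 12 weeks was 3075 normalized reads in OA replicate 4, where the other OA libraries held 4147 to 4216, so the gap was 0.948 of the range. Spi1 was 997 in sham replicate 3 at 12 weeks, with 1564 to 1678 in the other sham libraries (0.865 of the range). In the same library Irf8 was 1076, with 1495 to 1588 in the others (0.846 of the range). Sham replicate 3 also had the lowest macrophage sum and the highest endothelial sum of the time point, and OA replicate 4 the lowest endothelial sum, and their part in these values was not tested.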

How the results depend on the processing

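None of the 9 genes was called under any alternative at either time point or between them, and of 594 alternative values of single genes 555 kept their direction. Some of these values could not turn. Within a time point other filters, no minimum fold change and the replicate block leave a gene's limma log2 fold change as it was. The count of genes called over all genes, 0 by limma at both time points, was 27 at 4 weeks and 98 at 12 weeks by DESeq2, and 1 at 4 weeks with sample quality weights. Same-numbered OA and sham libraries correlated at −0.131 to 0.298. The highest was replicate 3 at 12 weeks, where the OA library was most like the sham library of its own number. A replicate block on that number gave 1 call at 4 weeks and 0 at 12 weeks and between time points. Leaving out single libraries gave 0 to 40 calls at 4 weeks and 0 to 233 at 12 weeks, and 0 for the difference between time points. The highest counts are without sham replicate 3, where limma called 81, edgeR 78 and DESeq2 233 genes at 12 weeks, and 1, 1 and 40 at 4 weeks (edgeR and DESeq2 without it were added after seeing the data). Without sham replicate 4 at 12 weeks limma called 1 gene. The exact test had 1 gene under 0.05 at each time point, and 1 to 3 at 4 weeks with a library left out (3 without OA replicate 5, 2 without sham replicate 5). The cause of these changes was not tested.

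Directions turned only for small values, the largest of which was the 0.11 of Csf2ra at 12 weeks. That value turned in 3 of 10 fits with a library left out, each without sham replicate 3. With sample quality weights at 12 weeks Csf2ra was −0.023, Irf8 −0.039 and Cebpb −0.016, Maf was 0.0035 with TMM scaling, and the difference between time points of Irf8 was 0.018 by edgeR and 0.021 with a mean of at least 50. Without sham replicate 3, limma, edgeR and DESeq2 gave −0.029, −0.039 and −0.035 for Irf8 at 4 weeks, −0.075, −0.042 and −0.056 for Irf8 at 12 weeks, and −0.073, −0.047 and −0.062 for Csf2ra at 12 weeks. With single libraries left out, log2 fold changes crossed 0 for Irf8 at 4 weeks (−0.039 to 0.19), and at 12 weeks for Csf2ra (−0.073 to 0.20), Maf (−0.14 to 0.088), Irf8 (−0.075 to 0.18) and Cebpb (−0.027 to 0.049). Differences between time points crossed 0 for Csf2ra (−0.24 to 0.032), Spi1 (−0.11 to 0.13) and Irf8 (−0.13 to 0.12). Unadjusted p stayed under 0.05 without any single library for Csf2rb at 12 weeks and Maf at 4 weeks. Sham replicate 3 at 4 weeks has the fewest reads, 4662344, and its low genes the least precision.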
